A study of Mus musculus with 14 samples.

Results

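The genes described here encode the linker and core histones of the mouse, and the data are chromatin immunoprecipitation sequencing (ChIP-seq) peaks of RNF2 and BAP1 in embryonic stem cells. Members were the protein-coding genes of the RefSeq annotation of GRCm38 whose symbol starts with H1f, H2ac, H2bc, H3c or H4c and a number (older symbols starting with Hist gave none further). There were 67 of them among 21779 protein-coding genes. The 5 RNF2 ChIP libraries came from wild-type (2), BAP1 knockout (2) and RNF2 knockout cells (1), and BAP1 ChIP was done in BAP1-C91A cells (1) and BAP1 knockout cells (1). C91A replaces the catalytic cysteine of BAP1, and the protocols write the C91A cells as carrying that allele over a null one. Every ChIP library had its own input library. All cells were C57BL/6 embryonic stem cells from embryos of day 3.5 to 4.5, and all were kept for 4 days with 4-OHT (4-hydroxytamoxifen, 100 nM) and the caspase inhibitor emricasan (10 µM). Wild-type and knockout cells alike thus carried both agents. Only the C91A cells among those used here had been crosslinked with disuccinimidyl glutarate before nuclear extraction, per the labels' protocols. The labels do not say whether replicates came from separate cultures or clones, so any spread given is that between these libraries.

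Histones package DNA. The core histones H2A, H2B, H3 and H4 form the nucleosome, and linker histones (H1) bind where DNA enters and leaves it. Most core and somatic H1 genes are short, lack introns, lie in clusters and are transcribed in S phase (replication-dependent genes). Others are made outside S phase or in germ cells only. RNF2 is the ubiquitin ligase of Polycomb repressive complex 1, and BAP1 removes the ubiquitin that RNF2 places on the tail of H2A, so that some of these genes encode the substrate of both proteins. Peaks at the genes are what was measured here. Neither ubiquitin on H2A nor histone expression was.

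The 5 promoter windows below carry the contrasts of the results. They are RefSeq sequences of GRCm38.p6, from 250 bases before to 50 after the annotated start, 5′ to 3′ on the gene's strand. The first is the start of H2ac1, whose window takes in most of the bases between it and the divergent H2bc1 (chr13:23934187-23934486, plus strand). H1f0 (chr15:79027962-79028261, plus strand) and H1f10 (chr6:87981433-87981732, minus strand) are linker histone genes with RNF2 peaks, and H1f10 is the single member with BAP1. H1f4 (chr13:23622509-23622808, minus strand) had the highest RNF2 fold enrichment of the replication-dependent genes, and H4c1 (chr13:23761200-23761499, minus strand) had no peak in any library. Capitals mark, on either strand, the CCAAT box, the TATA box in the form TATAAA, the octamer ATTTGCAT and the linker histone element AAACACA.
H2ac1: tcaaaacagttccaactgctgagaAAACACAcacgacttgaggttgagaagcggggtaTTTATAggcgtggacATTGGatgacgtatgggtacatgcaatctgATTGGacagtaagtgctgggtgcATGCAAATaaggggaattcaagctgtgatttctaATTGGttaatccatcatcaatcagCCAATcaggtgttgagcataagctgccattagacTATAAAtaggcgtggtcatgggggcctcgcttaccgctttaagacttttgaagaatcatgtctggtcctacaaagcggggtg
H1f0: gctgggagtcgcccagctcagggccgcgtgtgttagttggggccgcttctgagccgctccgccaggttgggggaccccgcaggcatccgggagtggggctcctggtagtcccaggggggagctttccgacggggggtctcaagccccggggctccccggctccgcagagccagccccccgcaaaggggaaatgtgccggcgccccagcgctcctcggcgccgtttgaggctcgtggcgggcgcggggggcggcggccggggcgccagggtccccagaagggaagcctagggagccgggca
H1f10: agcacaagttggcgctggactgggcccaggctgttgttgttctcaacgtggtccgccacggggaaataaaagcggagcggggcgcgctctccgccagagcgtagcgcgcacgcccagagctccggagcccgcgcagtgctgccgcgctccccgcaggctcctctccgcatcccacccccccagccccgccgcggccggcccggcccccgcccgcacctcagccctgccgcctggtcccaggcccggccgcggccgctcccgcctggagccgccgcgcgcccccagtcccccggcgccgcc
H1f4: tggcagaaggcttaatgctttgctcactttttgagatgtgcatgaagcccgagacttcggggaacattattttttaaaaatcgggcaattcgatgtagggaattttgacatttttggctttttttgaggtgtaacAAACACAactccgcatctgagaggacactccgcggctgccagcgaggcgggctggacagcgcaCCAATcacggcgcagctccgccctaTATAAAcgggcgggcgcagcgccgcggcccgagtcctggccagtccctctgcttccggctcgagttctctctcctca
H4c1: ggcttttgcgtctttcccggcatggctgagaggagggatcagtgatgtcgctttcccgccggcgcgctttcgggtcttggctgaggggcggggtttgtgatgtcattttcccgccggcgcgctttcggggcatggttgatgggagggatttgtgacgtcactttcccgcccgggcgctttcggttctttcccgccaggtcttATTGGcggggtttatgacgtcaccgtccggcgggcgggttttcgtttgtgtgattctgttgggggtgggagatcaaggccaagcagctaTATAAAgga

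RNF2 was found at few histone genes by the shallower first libraries and at many by the deeper second ones. Occupied means that at least 1 bp of a peak fell in the window reaching 1 kb to each side of either gene end. In the first wild-type library (58.4 M tags) 2 of 67 histone genes were occupied (2.99%, Wilson 95% interval 0.822 to 10.2), beside 11.1% of all genes. In the second wild-type library (149 M tags) 29 were occupied (43.3%, 32.1 to 55.2), beside 49.3% of all genes. In BAP1 knockout the first library (54.1 M tags) held 3 occupied members (4.48%, 1.53 to 12.4) beside 23.2% of all genes. The second (139 M tags) held 34 (50.7%, 39.1 to 62.3) beside 57.7%. The RNF2 knockout library (119 M tags) listed 0 peaks at members and at all genes (0%). Intervals cover counting error only, and members that share a peak are not independent. In the first libraries the share of histone genes was under that of all genes, by the most in BAP1 knockout. Peaks were absent from 27 members in all 4 of these libraries (40.3%, 29.4 to 52.3), beside 41% of all genes. In the second libraries the background lay inside the members' interval, so those shares are no result about histone genes.

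**Figure D1:**
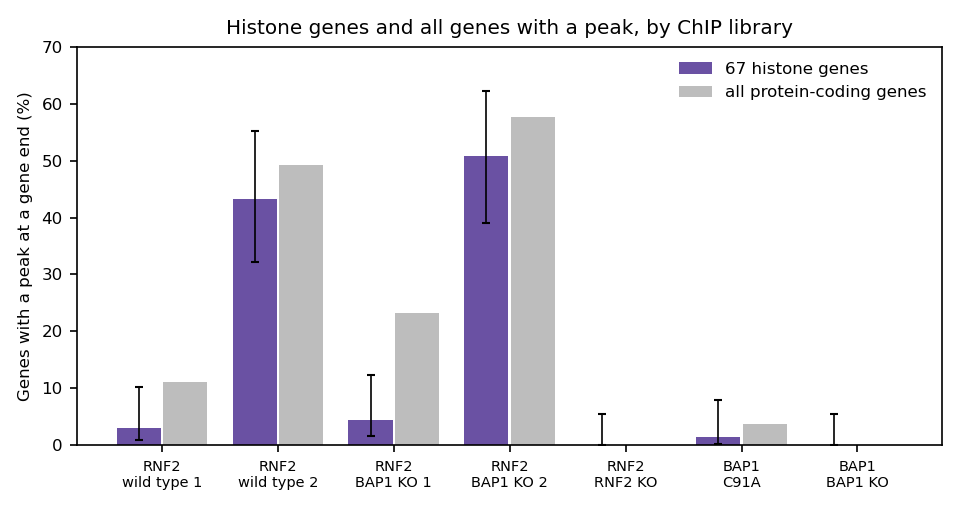
Share of the 67 histone genes (purple, with Wilson 95% intervals) and of all 21779 protein-coding genes (grey) that have a peak within 1 kb of either end, in percent, for each of the 7 ChIP libraries (KO, knockout). Histone genes are at 2.99% and 4.48% in the first RNF2 libraries and at 43.3% and 50.7% in the second ones.

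Histone genes present less sequence to a peak than most genes. Their median length was 496 bp against 17217 bp for all genes, so that the windows at both ends fuse to a median of 2496 bp against 4002 bp. The part of this in the lower shares was not tested. Over the fused windows of all members (141 kb), RNF2 peaks covered 0.220% and 7.23% in the first and second wild-type library and 2.504% and 10.5% in BAP1 knockout. Over the windows of all genes the covered shares were 3.19% and 12.6% in wild type and 7.13% and 17.9% in BAP1 knockout. Per base, too, histone gene windows were covered less than those of all genes in each of the 4 libraries.

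The members fell into groups by how they are used in the body, a grouping taken from textbook knowledge after the values were seen. Germ cell genes made up 5 members (H2ac1, H2bc1, H1f6, H1f7 and H1f8) and replacement linker histones 2 (H1f0 and H1f10). The remaining 60 members were all taken as replication-dependent, without a check of each gene. None of the 60 replication-dependent genes had a peak in either first library (all genes: 11.1% in wild type and 23.2% in BAP1 knockout). The nearest RNF2 peak of the 60 lay a median of 184 kb away in the first wild-type library (range 28.0 to 296 kb). In the first BAP1 knockout library that median was 108 kb (6.88 to 232 kb). Over all genes the medians were 171 kb and 45.2 kb. In the second libraries 24 of the 60 (40.0%) were occupied without BAP1 loss (all genes: 49.3%) and 29 (48.3%) with it (all genes: 57.7%). Those peaks were small. The 26 in wild type had a median width of 148 bp, and the 33 in BAP1 knockout had a median of 170 bp. Their fold enrichment over local background, the authors' value, reached at most 3.90 without BAP1 loss and 5.11 with it. When a −log10 q of 10 or more was required, 0 of the 60 were left in the second wild-type library and 5 in BAP1 knockout. Of all genes, 29.1% and 42.1% had such a peak.

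H2ac1 and H2bc1 were the 2 histone genes with RNF2 in all 4 libraries, against 10.8% of all genes. Their call in the first wild-type list rests on 1 peak with a −log10 q of 3.20, and at a −log10 q of at least 5 the count in both wild-type libraries was 0. They encode the testis forms of H2A and H2B, which replace the somatic forms in developing sperm, and they lie head to head (H2bc1, chromosome 13, 23933725 to 23934156, minus strand; H2ac1, 23934437 to 23934913, plus strand). In the first wild-type library 1 peak of 310 bp lay over the start of H2ac1, from position -37 to 272 bp relative to it (negative before the start), with a fold enrichment of 2.99. A peak of 668 bp in the first BAP1 knockout library lay over H2bc1 instead, from 99 to 766 bp after the start of that gene, with a fold enrichment of 3.43. These peaks did not overlap each other, so the first libraries share the genes and not the bases.

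The second libraries each showed the same arrangement of 2 broad peaks there. In wild type a peak of 584 bp covered the end of H2bc1 (fold enrichment 7.35), and 1 of 1178 bp spanned both starts (5.78). In BAP1 knockout the corresponding peaks were 726 and 1273 bp wide, with fold enrichments of 13.1 and 12.0. Most genes moved in that direction: of the 10456 with a peak in both second libraries, 83.9% had a higher fold enrichment in BAP1 knockout (median ratio 1.35). Among histone genes 15 of 23 did (65.2%, median ratio 1.15). The difference between these shares was not tested. The H2ac1 window printed above was covered over all 300 bases in both second libraries and over 87 bases in the first wild-type library. Within their lists, the highest peak here stood above 85.0% of peaks in the second wild-type library and above 89.8% in the second BAP1 knockout library. In the first libraries it stood above 17.7% and 27.6%.

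H1f0 carried the widest RNF2 peak of any member. It encodes H1.0, a linker histone made outside S phase and known for building up in cells that stop dividing or differentiate (chromosome 15, 79028212 to 79030504, plus strand). The first wild-type library had no peak at the gene, the nearest lying 133 kb away. The first BAP1 knockout library held a peak of 2231 bp from position -1197 to 1033 (fold enrichment 4.32) and 1 of 854 bp at the gene's end (3.14). The second wild-type library held 5 peaks, of which the 1414 bp one over the start had a fold enrichment of 5.73 and the other 4 reached at most 2.82. In the second BAP1 knockout library a single peak of 5890 bp ran from position -2667 to 3222, beyond the gene's end, with a fold enrichment of 12.2. Fold enrichment was higher in that library at 83.9% of all genes with a peak in both second libraries, as given above. Within each pair the occupied length was greater in BAP1 knockout. H1f0 was the 1 histone gene gained in the first pair, of 65 without a peak in its wild-type library (1.54%, Wilson 0.272 to 8.21), beside 14% of such genes. It was not gained over all 4, given its peaks in the deeper wild-type list. None of the 2 members in the first wild-type list was lost in that pair, beside 3.14% of all such genes.

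**Figure D2:**
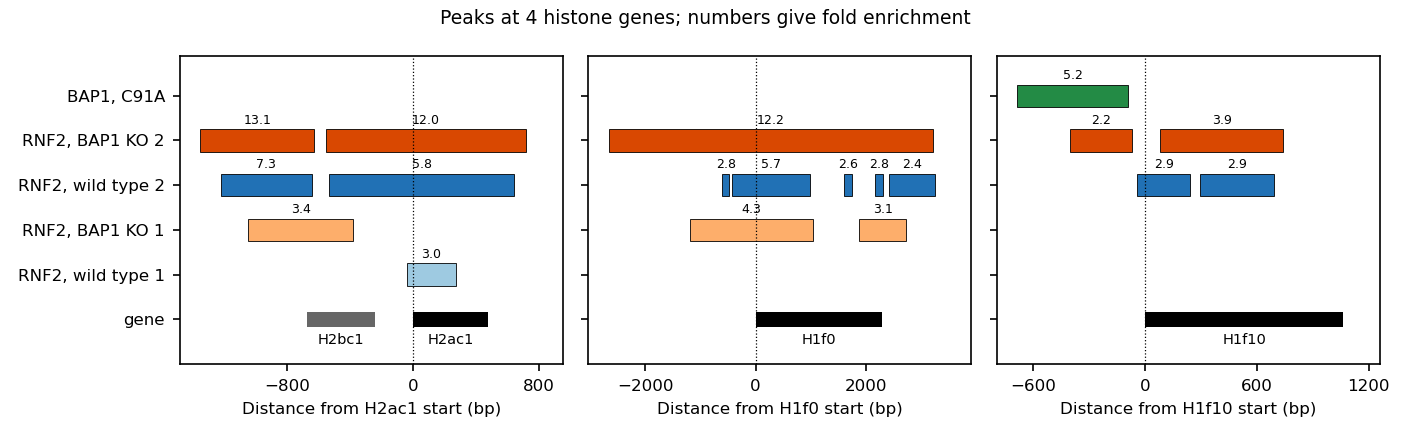
Peaks (bars) in the 4 RNF2 libraries and the BAP1 library of C91A cells at H2ac1 with H2bc1, at H1f0 and at H1f10; the x axis is the distance in bp from the start of H2ac1, H1f0 or H1f10 in the direction of that gene, black and grey bars are the genes, and the numbers give the authors' fold enrichment. The second BAP1 knockout library has a single peak of 5890 bp at H1f0, and at H1f10 the BAP1 peak lies wholly before the start.

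The remaining linker histone genes had lower fold enrichment than H1f0 or no peak. H1f4, a somatic linker histone (chromosome 13, 23621777 to 23622558), was the highest of the replication-dependent members: its peak over the start had a fold enrichment of 3.90 in the second wild-type library (500 bp) and 5.11 in the second BAP1 knockout library (470 bp). The medians of all gene-end peaks in those lists were 3.55 and 4.30. H1f3 and H1f5, also somatic, held narrow peaks in both second libraries, the highest of them at 3.01 (H1f3) and 2.89 (H1f5) without BAP1 loss and at 3.45 and 2.61 with it. H1f1 and H1f2 were occupied in wild type alone (2.45 and 2.78). So was H1f7, a spermatid linker histone (2.67). H1f6, the linker histone of meiotic sperm precursors, showed the reverse, with no peak in wild type and 1 of 634 bp after its start in the second BAP1 knockout library (3.51). H1f8, the oocyte linker histone, was the 1 linker gene with no peak in any library. Of the 10 linker genes 8 were occupied in the second wild-type library and 6 in the second BAP1 knockout library, beside 49.3% and 57.7% of all genes.

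Core histone genes gave different counts by class, with no test of the difference. In the second wild-type library RNF2 peaks lay at 8 of 17 H2A genes, 7 of 16 H2B genes, 4 of 12 H3 genes and 2 of 12 H4 genes. In the second BAP1 knockout library the counts were 12 of 17, 11 of 16, 4 of 12 and 1 of 12. In wild type these are 47.1%, 43.8%, 33.3% and 16.7%, beside 49.3% of all genes, and in BAP1 knockout 70.6%, 68.8%, 33.3% and 8.33%, beside 57.7%. H4 genes were lowest in both, with H4c8 occupied in both libraries (fold enrichment 3.66 and 3.19) and H4c14 in wild type alone (2.46). Of 11 H4 promoter windows 4 share runs of 50 bases with other genes (H4c11, H4c12, H4c17 and H4c18, all without a peak). The counts were 4 of 17 for H2A, 1 of 14 for H2B and 2 of 10 for H3. Absence of a peak at such near copies, described below, is uncertain. H2A and H2B genes often stand head to head and can share a peak, so their counts move together. At H2ac7 and H2bc7, for example, a peak shared by both genes had a fold enrichment of 3.56 in wild type (355 bp) and 4.04 in BAP1 knockout (361 bp). Of the 37 peaks at members in the second wild-type library 13 touched 2 members, and of the 39 in BAP1 knockout 20 touched 2 or 3.

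Counts of occupied genes differed among the histone clusters, with no test of the difference. Neighbouring genes can share a peak, and absence of a peak at the near copies described below is uncertain. Of all genes, 49.3% were occupied in the second wild-type library and 57.7% in the second BAP1 knockout library. Members under 100 kb apart were taken as 1 cluster. The cluster on chromosome 3 (96219885 to 96270192, 10 genes) was occupied at 7 genes in the second wild-type library and 8 in the second BAP1 knockout library. Its highest fold enrichment was 3.01 at H2ac18 in wild type. In BAP1 knockout it was 4.11, in a peak of 685 bp that touches H2ac21, H2ac20 and H2bc21. On chromosome 13 the first cluster (21715711 to 21833475, 17 genes) was occupied at 2 genes, H1f5 and H2bc14, in wild type and at 7, resting on 4 peaks, in BAP1 knockout. The small cluster next to it (22035122 to 22043658, 5 genes) was occupied at the same 4 genes in both, H2ac11, H2bc11, H2ac12 and H2bc12, with H4c9 free of peaks. The largest cluster (23531044 to 23764412, 29 genes) was occupied at 11 genes in each library, 8 of them shared. No cluster held a peak at a member in a first library apart from the H2ac1 and H2bc1 pair.

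**Figure D3:**
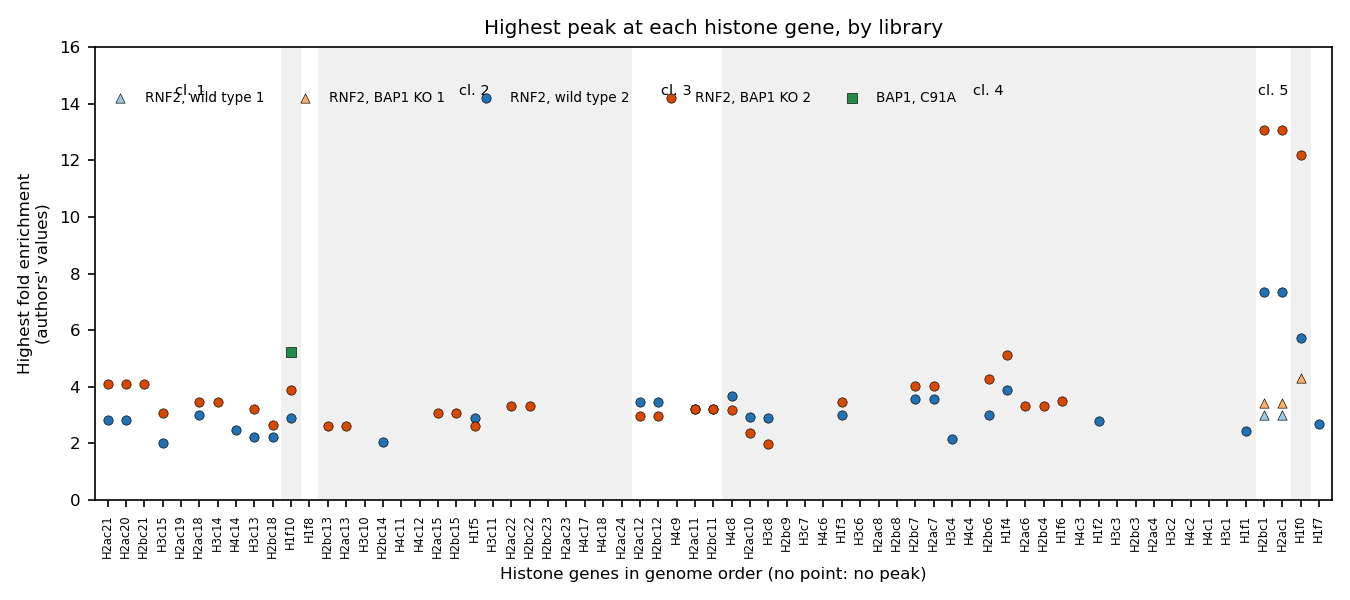
Highest fold enrichment (y axis, authors' values) among the peaks at each of the 67 histone genes in genome order (x axis), for the first (triangles) and second (circles) RNF2 libraries and the BAP1 library of C91A cells (square); shading separates clusters (cl.) and single genes, and a gene without a point has no peak. Only H2bc1, H2ac1 and H1f0 lie above 5.11 for RNF2, and only these 3 have triangles.

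The largest cluster held a stretch with no peaks. From H3c3 to H3c1, 7 neighbouring genes of the H2A, H2B, H3 and H4 classes held no peak in any library. The highest peak in that cluster's span was not at a histone gene: Hfe, an iron regulator located among them, held a fold enrichment of 5.15 in the second wild-type library and 9.15 in the second BAP1 knockout library. In the first chromosome 13 cluster, 5 neighbouring genes (H2bc23, H2ac23, H4c17, H4c18 and H2ac24) were also without any peak. Those 5 share sequence with other genes. Of the 251 runs of 50 bases, the length of a sequenced tag, in each promoter window, 184 to 251 stood also in the window of another gene at these 5. Among the 62 members with a window in the promoter table, 11 had such a shared run, and 3 of the 11 held a peak (H3c14, H3c15 and H2ac18). The sources used here do not say how tags that map to several places were treated, so absence of a peak at near copies is uncertain, and its part in the counts was not tested.

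**Figure D4:**
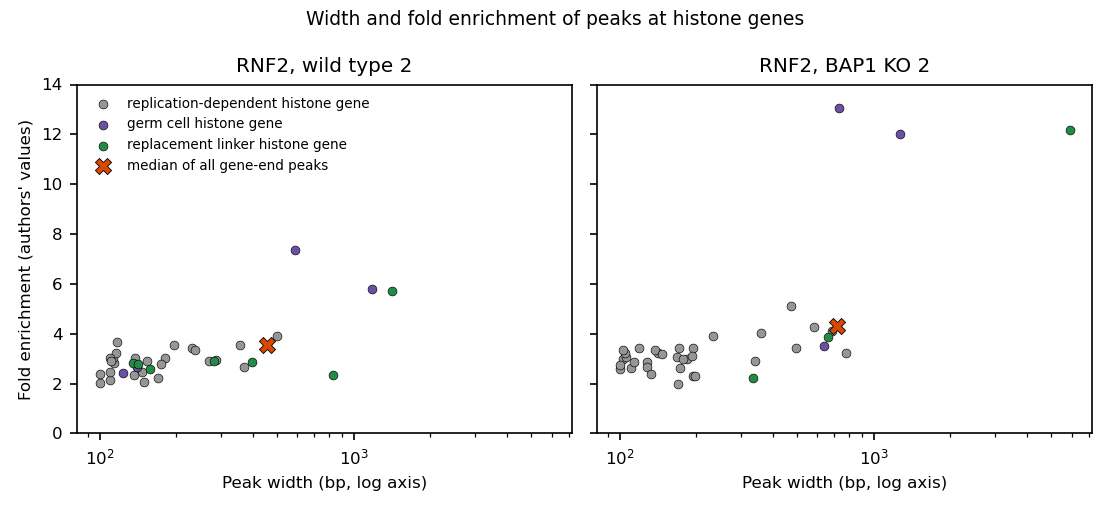
Width (x axis, bp, log scale) and fold enrichment (y axis, authors' values) of each peak at a histone gene in the second wild-type and second BAP1 knockout RNF2 library, coloured by the use of the gene, with the median of all gene-end peaks of the list as a cross. Peaks at replication-dependent genes reach at most 500 bp in the wild-type panel and 777 bp in the other, and the 3 highest points of each panel belong to H2ac1 with H2bc1 and to H1f0.

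The position of peaks, strong and weak alike, could be read for members with a known start. In the second wild-type library, 49 combinations of gene and peak had a start: 16 had the summit before the start, 22 inside the gene and 11 beyond its end. In BAP1 knockout these were 22, 19 and 15 of 56. A peak lay over the start itself in 15 of 49 and 13 of 56. The lists held 37 and 39 separate member peaks, and 1 that touches several members counts for each. The same summit can thus lie inside 1 gene and before the start of another. No such counts were made over all genes.

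Between genotypes, the number of occupied histone genes differed by less than between libraries of 1 genotype. It was 2 and 29 in wild type and 3 and 34 in BAP1 knockout, and the difference of the means was 3 genes (18.5 against 15.5; two-sided exact permutation p = 0.667 over 6 arrangements, the smallest possible being 0.333). The difference turned to −10.5 genes when the first wild-type library was left out and to −12.5 when the second BAP1 knockout library was, each of which leaves the genotypes unequal in depth. Within the first pair it was 1 and within the second 5. The same order held for the windows' covered length, 0.31 and 10.2 kb against 3.52 and 14.8 kb (exact permutation p = 0.667). No histone gene was gained in both BAP1 knockout libraries, of 38 without a wild-type peak (all genes: 0.326%), and none lost, of 2 (all genes: 0%).

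In the second pair genes left and joined the list. Of 38 histone genes without a wild-type peak 11 were gained (28.9%, Wilson 17.0 to 44.8), beside 19.1% of all such genes. Of 29 with a wild-type peak 6 were lost (20.7%, 9.85 to 38.4), beside 2.68% of all such genes. The gained genes were H2bc21, H3c14, H2bc13, H2ac13, H2ac15, H2bc15, H2ac22, H2bc22, H2ac6, H2bc4 and H1f6, of which 4 neighbouring H2A and H2B couples rest on 1 peak each. The lost genes were H4c14, H2bc14, H3c4, H1f2, H1f1 and H1f7. Lost peaks had a fold enrichment of 2.07 to 2.78, widths of 110 to 174 bp and −log10 q of 1.40 to 3.77, where the limit of the lists is a q of 0.05. Gained peaks had a fold enrichment of 2.61 to 4.11 and −log10 q of 2.99 to 12.1. The highest, counted for H2bc21, also touches H2ac20 and H2ac21, which held a wild-type peak. That wild-type peak lay 1100 bp from H2bc21, just outside its window. At the other gained genes the highest was 3.51 (H1f6, −log10 q 8.32).

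Peaks at histone genes were compared between genotypes by overlap. Of the 37 member peaks in the second wild-type library, 62.2% overlapped a peak of the second BAP1 knockout library, beside 93.4% of its 13776 gene-end peaks. Of those 37, 24 (64.9%) had a −log10 q under 5, beside 30.7% of all gene-end peaks. Of the 39 member peaks in the second BAP1 knockout library, 43.6% overlapped a wild-type one, beside 66.4% of its 16400 gene-end peaks. These differences between members and all peaks were not tested. Without H2ac1, H2bc1 and H1f0, the overlapping share of member peaks in wild type was 53.3% of 30.

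BAP1 was found at 1 histone gene. In C91A cells (415 M tags) H1f10 held a peak, 1 of 67 members (1.49%, Wilson 0.264 to 7.98) beside 3.74% of all genes. H1f10 encodes H1X, a linker histone made in dividing and resting cells alike (chromosome 6, 87980421 to 87981482, minus strand). The BAP1 peak was 597 bp wide, from position -686 to -90, with a fold enrichment of 5.22 (−log10 q 9.75), above 98.9% of the peaks in that list. RNF2 lay at the same gene in the second libraries: in wild type in 2 peaks at and after the start (fold enrichment 2.91 and 2.88), in BAP1 knockout in 1 peak after the start (3.88) and 1 before it (2.21) from position -401 to -69, which overlaps the bases of the BAP1 peak. Neither first RNF2 library had a peak within 208 kb of H1f10. BAP1 and RNF2 were mapped in different cells, so joint binding was not measured. Of the 29 members with RNF2 in the second wild-type library, H1f10 was the 1 with BAP1 (3.45%, Wilson 0.611 to 17.2), beside 6.26% of all such genes.

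The nearest C91A peak lay a median of 763 kb from all genes. It was 43.5 kb from H1f8, 92.95 kb from H1f0 and 110 kb from H1f7. The 53 members on chromosome 13 lay 7.62 to 9.84 Mb from the nearest C91A peak, inside a stretch of 28.2 Mb with none (3359623 to 31558968). The longest such stretch on the other 18 autosomes ranged from 8.01 to 33.8 Mb. The 10 members on chromosome 3 lay 1.09 to 1.14 Mb from one. BAP1 ChIP in BAP1 knockout cells (32.5 M tags) held 0 of 67 members (Wilson upper bound 5.42%), beside 0.00459% of all genes. There was 1 library of each kind and no test, and the crosslinking differed between them.

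Histone promoters shared motifs that the choice of genes did not use. A promoter window was in the table for 62 of 67 members, with H2bc4, H2bc21, H3c1, H3c7 and H4c14 missing. CCAAT, the site of NF-Y, stood on either strand in 51 of 62 (82.3%), beside 37.4% of all 32851 promoter windows, and TATAAA in 34 (54.8%) beside 13.6%. ATTTGCAT, the octamer bound by Oct factors, stood in 12 (19.4%) beside 1.74%, all of them H2A or H2B genes (6 of 17 and 6 of 14). Windows of head-to-head genes overlap, so the same bases can count for both genes, for each motif. H2ac1 with H2bc1, H2ac8 with H2bc8 and H2ac12 with H2bc12 are such couples with the octamer. AAACACA, known from linker histone promoters, stood in 5 of 10 H1 windows and in 9 of all 62 (14.5%), beside 7.18%. None of the 4 motifs, on either strand, contains another, and a match describes letters and not binding.

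CpG dinucleotides, at which Polycomb complexes are known to gather where dense, were counted in the same windows. The windows of H1f0 and H1f10 printed above held 29 and 40 CpGs and none of the 4 motifs. The median was 11 over all 62 members and 7 over all promoter windows. The H2ac1 window, occupied in both second libraries and the first wild-type one, held 8. Replication-dependent genes with a peak in a second library had a median of 12 CpGs (31 windows) and those without one 11 (24 windows). The highest number of any member was 41, at H2ac18, with peaks in both second libraries. H2ac19, with 36, and H4c1, with 27, had no peak in any library. In H2ac18 and H2ac19 alike, 170 runs of 50 bases stood also in the window of another gene, so absence at H2ac19 is uncertain. H4c1 had no such run. Among the replication-dependent windows, such runs stood in 8 of the 24 without a peak and in 3 of the 31 with one. Their part in the CpG comparison was not tested.

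Genes that work with histones but lie outside the naming rule were taken as 2 further lists. Of 12 genes for replacement core variants, other germ cell forms and related histones, 1 held RNF2 in both wild-type libraries (8.33%, all genes: 11.1%): Macroh2a2, a macroH2A variant (wild type 3.36 and 9.60, BAP1 knockout 3.01 and 11.2). The second libraries each held 7 of the 12 (58.3%), beside 49.3% of all genes in wild type and 57.7% in BAP1 knockout. H3f3a, which encodes the replacement histone H3.3, was among them (2.77 and 4.74), and H3f3b, which encodes the same protein, was not. None of the 12 held BAP1.

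Of 32 genes for the transcription, processing and assembly of histones, 0 were occupied in the first wild-type library (all genes: 11.1%) and 1 in the first BAP1 knockout library (3.13%, all genes: 23.2%). That gene was Sympk, a scaffold of histone mRNA 3′ end cleavage (5.29, and 4.43 and 12.2 in the second wild-type and BAP1 knockout libraries). The second wild-type list had peaks at 21 of the 32 (65.6%, all genes: 49.3%), and the second BAP1 knockout list at 28 (87.5%, all genes: 57.7%). Npat, the S phase activator of histone genes, Slbp, which binds the histone mRNA stem-loop, and Lsm10 were among 8 gained in the second pair, of 11 without a wild-type peak there (all such genes: 19.1%), with a fold enrichment of 3.21, 3.09 and 3.80. Mybl2, a cell cycle transcription factor, was the 1 lost (2.35 in wild type). BAP1 lay at 2 of the 32 (6.25%, all genes: 3.74%), Hira, the H3.3 chaperone (3.91), and Zfp473, a histone mRNA processing factor (3.45).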

How the data were processed

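The submitters' processing notes name GSNAP, with no version, and GRCm38 (mm10). MACS2 had called peaks in each ChIP library against its own input at a q-value limit of 0.05, per the file headers (version 2.1.0.20150420 for the first RNF2 libraries and both BAP1 libraries, 2.1.1.20160309 for the others). Fragment length was 297 and 323 bp in the first RNF2 libraries and 100 bp in the others, 50 bp in C91A and 147 bp in the BAP1 knockout library of BAP1 ChIP, per the file headers. First and second RNF2 libraries differ in tag depth, version and fragment length at once, which cannot be told apart. The inputs held 41 to 228 M tags.

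The deposited lists give per peak a pileup signal (not used), a fold enrichment over local background (a ratio) and −log10 of p and q, all the authors' values. Fold enrichment described peaks within a list, apart from the share of genes with a higher value in the second BAP1 knockout list. Only peaks on autosomes and sex chromosomes entered. Gene positions and names came from RefSeq GRCm38.p6, without 108 entries that start before 3 Mb (Y excepted), which were taken as unplaced. Gene starts came from the promoter table, which holds 62 members. Gained genes had a peak in BAP1 knockout and none in wild type, and lost genes the opposite. Overlap code was tested on simulated peaks. Python 3.11.15, pandas 2.3.3 and scipy 1.17.1 were used.

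The members, lists and rules were chosen with earlier results of these data known. Genes named were members with a peak in a first RNF2 or a BAP1 library, all linker genes, members gained or lost in the second pair, the 3 members of each cluster highest in each second library, and list genes with a peak in the first wild-type or C91A library. Other names, the roles of the genes and the 100 kb that separates clusters were chosen after values were seen. Alternatives were other windows, peak limits, list lengths and left-out libraries.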

Additional observations from a re-analysis of the deposited data

How the results depend on the processing

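With −log10 q of at least 5, 0 histone genes were occupied in the first wild-type library, 0 in both wild-type libraries and 14 in the second, and 3 were gained in the first pair. With at least 10 the counts were 0 in the first and 3 in the second wild-type library, 0 in both wild-type libraries, 1 and 9 in the BAP1 knockout libraries, 6 gained and 0 lost in the second pair, and 0 with BAP1 in C91A cells. The 3 and 9 in the second libraries are 4.48% and 13.4% of histone genes, beside 29.1% and 42.1% of all genes. For the other counts under changed limits or list lengths no share over all genes was worked out. Those counts are therefore no result about histone genes. Every RNF2 list was also held to its 4038 peaks of highest fold enrichment, the full length of the first wild-type list. That list thus stayed whole, down to a fold enrichment of 1.24, and kept its 2 histone genes. The second wild-type list was cut at 7.90 and the first BAP1 knockout list at 4.76, and 0 histone genes remained in either. In the second BAP1 knockout list, cut at 13.1, 0 remained as well. With these lists 0 were in both wild-type libraries, and 0 were gained in either pair or lost in the second. The difference between genotypes turned to −1 (exact permutation p = 1), which rests on the uncut list. In the second BAP1 knockout library the shortening kept peaks of a fold enrichment of at least 13.1. H2bc1, just under that, fell out. Leaving out 1 wild-type library put the count of the remaining one in place of both, 29 without the first and 2 without the second. With any 1 RNF2 library left out, a single library stood for its genotype. Gained genes then ranged from 0 to 11 and lost genes from 0 to 6. The difference between genotypes ranged from −12.5 to 18.5, turning to −10.5 when the first wild-type library was left out and −12.5 when the second BAP1 knockout library was. With the replicate number as a block, the difference between genotypes was 3 genes (exact sign-flip p = 0.5, the smallest possible). The labels number the second libraries alone, and the unnumbered ones were taken as the first, so the pairing rests on no stated shared culture. Windows of 500 bp, 2.5 kb or the whole gene and the summit in the window kept each count of histone genes within 1.5 times. The gene start alone was run for the 4 RNF2 counts per library, which it kept within 1.5 times.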
